A study of Drosophila melanogaster with 8 samples.

Results

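Genes of the testis and of sperm structure were read in RNA extracted from fly heads. The members are 9 genes of Drosophila melanogaster: ocn, dj, Mst84Da, Mst84Db, Mst84Dc, Mst84Dd, Mst87F, Mst98Ca and Mst98Cb. They were chosen by gene symbol, and each has 1 probe set (several short probes that give a single value) on the Affymetrix Drosophila Genome 2.0 array. They are 9 of the 11982 genes that stand alone on a probe set in the platform annotation, and no probe set that names several genes holds a member. No member was left out for a low value.

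The arrays cover 4 strains at 2 times of day in a cycle of 12 h light and 12 h dark: ZT4, in the light, and ZT16, in the dark. For all samples 3 days of this cycle are given. The genotypes are w1118 (called the w1118 control), w1118 ; mir959-962-KO (the knockout of a miRNA cluster), yw ; tim-gal4/CyO (the tim-gal4 control) and yw ; tim-gal4, UAS-mir-cluster/CyO (overexpression). Both yw strains carry the tim-gal4 driver, which uses the promoter of the clock gene tim, and the CyO balancer chromosome. A single array was made for each strain and time, 8 in all, so there are no replicates and no test between any 2 arrays. The age and sex of the flies, and how many heads went into a sample, are not given in the sources used here.

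The Mst84D, Mst87F and Mst98C genes belong to a family of male-specific transcripts whose small proteins carry repeats of cysteine, glycine and proline and lie in the sperm tail. The protein of dj (don juan) also lies in the sperm tail, along the mitochondrial derivatives, and ocn (ocnus) is a testis gene related to its neighbours janA and janB. In the testis, genes of this family are transcribed in spermatocytes, and their messages are stored and translated only when the spermatids elongate. All 9 members lie on chromosome arm 3R. There the 4 Mst84D genes follow each other without another gene between them, as do Mst98Ca and Mst98Cb, in the gene order of a RefSeq table (Release 6).

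The tissue label was read against markers first. The 5 head markers analysed here (trp, inaC, nSyb, repo and elav) each had a log2 intensity of at least 5.51 on all 8 arrays, and trp, the light-activated channel of photoreceptors, read between 11.43 and 12.23. The lowest value on each array was 2.32. Readings near it were taken as not above background, and a fold against them is not quantitative. The ZT16 arrays of the knockout and of the tim-gal4 control stood apart from the other 6: 34.6% and 34.7% of their probe sets were at the lowest value, against 38.1% to 38.5%, and their medians were 2.92 and 2.89 on the log2 scale, against 2.55 to 2.60. They are called the 2 arrays below, and were named from earlier results of these data, so no average and no test was made over them. In RNA from a bulk sample, fewer cells of a type and less RNA per cell cannot be told apart.

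Of the 9 members, 8 were near background on 6 arrays and far above it on the 2 arrays, and dj was near background on all 8. The testis gene ocn read 8.51 for the knockout and 8.33 for the tim-gal4 control at ZT16. At ZT4 both strains read 2.32. The w1118 control read 2.32 at ZT4 and 2.33 at ZT16, and overexpression 2.32 at both times. The 2 high values thus lie 6.01 or more above each of the other 6 on the log2 scale. Because the 2 arrays were named from earlier results, nothing is read from such a gap for this or any other member. The ZT16 value was 72.8-fold the ZT4 value for the knockout and 64.4-fold for the tim-gal4 control, both against background.

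**Figure D1:**
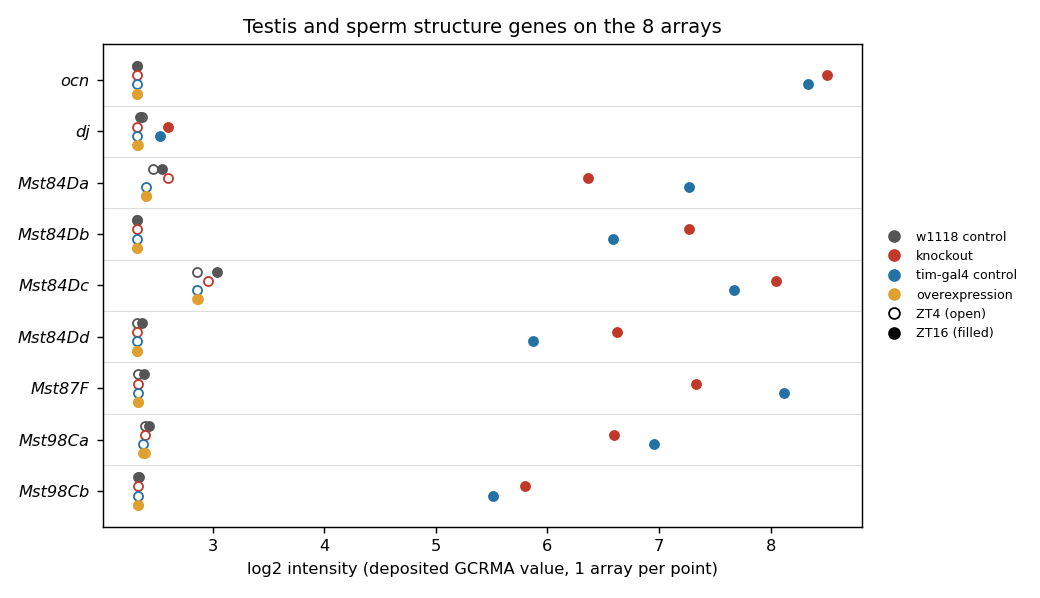
Log2 intensity of each member on each of the 8 arrays, with colours for the strains, open points for ZT4 and filled points for ZT16. The ZT16 points of the knockout and the tim-gal4 control lie between 5.51 and 8.51 for 8 members and at 2.60 and 2.53 for dj, while the other 6 points of every member lie between 2.32 and 3.04.

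The 4 Mst84D genes, which lie side by side, showed the same 2 arrays apart. Mst84Da read 6.37 for the knockout and 7.27 for the tim-gal4 control at ZT16, and 2.60 and 2.40 in these strains at ZT4. In the w1118 control it read 2.47 (ZT4) and 2.54 (ZT16), and 2.40 at both times under overexpression. The tim-gal4 control array was the higher of the pair for this gene. Mst84Db read 7.27 for the knockout and 6.59 for the tim-gal4 control at ZT16, and 2.32 on each of the other 6 arrays. Here the knockout array was the higher one.

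Mst84Dc read 8.05 for the knockout and 7.67 for the tim-gal4 control at ZT16, and 2.96 and 2.86 in these strains at ZT4. In the w1118 control it read 2.87 (ZT4) and 3.04 (ZT16), and 2.86 and 2.87 under overexpression. The knockout array was again the higher of the pair. Mst84Dd read 6.62 for the knockout and 5.87 for the tim-gal4 control at ZT16, 2.37 in the w1118 control at ZT16, and 2.32 on the other 5 arrays. From the lower of the 2 arrays to the highest of the other 6, the gap was 3.76 for Mst84Da, 4.26 for Mst84Db, 4.64 for Mst84Dc and 3.50 for Mst84Dd on the log2 scale.

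Mst87F, of the same sperm tail family, read 7.33 for the knockout and 8.12 for the tim-gal4 control at ZT16, 2.39 in the w1118 control at ZT16, and 2.33 on the other 5 arrays. For this gene the tim-gal4 control array was higher than the knockout array. Mst98Ca read 6.60 for the knockout and 6.95 for the tim-gal4 control at ZT16, and 2.40 and 2.37 in these strains at ZT4. In the w1118 control it read 2.40 (ZT4) and 2.43 (ZT16), and 2.40 and 2.38 under overexpression. Its neighbour Mst98Cb was higher on the knockout array of the pair. It read 5.80 for the knockout and 5.51 for the tim-gal4 control at ZT16, 2.34 in the w1118 control at ZT16, and 2.33 on the other 5 arrays. Among the 8 members that were high, Mst98Cb had the smallest gap to the other 6 arrays, 3.17 on the log2 scale.

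The sperm tail gene dj differed from the rest. It read 2.60 for the knockout and 2.53 for the tim-gal4 control at ZT16, and 2.33 in both strains at ZT4. In the w1118 control it read 2.37 (ZT4) and 2.35 (ZT16), and 2.33 at both times under overexpression. The 2 arrays were the highest for dj too, by 0.16 over the highest of the others, but all 8 values lie close to background. The next gene on the chromosome, djl (don juan like), read 5.20 and 5.23 on the 2 arrays and between 2.51 and 2.59 on the other 6.

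On the other 6 arrays the values of a member spread by at most 0.20 on the log2 scale. Within this range the w1118 control ZT16 array was the highest of the 6 for 6 members (ocn, Mst84Dc, Mst84Dd, Mst87F, Mst98Ca and Mst98Cb). With 1 array per condition it cannot be said whether that exceeds the error of an array. The same share over all probe sets was not worked out, so nothing is read from the count.

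At ZT16, 8 of 9 members read at least 2-fold higher than at ZT4 in the knockout, against 4.09% of all 18769 probe sets, and the same 8 did so in the tim-gal4 control, against 3.61%. No member did in the w1118 control, against 0.314%, or under overexpression, against 0.245%. The 9 members are too few to fall below such shares. For the 8 genes the log2 difference lay between 3.46 and 6.19 in the knockout and between 3.18 and 6.01 in the tim-gal4 control. Over all 9 members it lay between -0.02 and 0.17 in the w1118 control and between -0.02 and 0.00 under overexpression. Ranked by this difference among all probe sets, the 8 genes took places 51 (ocn) to 217 (Mst98Cb) in the knockout and 54 (ocn) to 218 (Mst98Cb) in the tim-gal4 control. For dj it was 0.28 and 0.21, at places 1677 and 2007. Of all probe sets, 2.77% read at least 2-fold higher on both of the 2 arrays than on each of the other 6, and 8 of the 9 members are among them. Since the 2 arrays were named from earlier results, nothing is read from that count, nor from the counts and places within strains.

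The 2 arrays were then compared with each other. No member differed 2-fold between them, and 5.37% of all probe sets did in either direction. The members are too few for this to set them apart from that share, so no contrast is read from it. The knockout value was the higher one for 6 members and the tim-gal4 control value for 3, against 7117 and 5839 of all probe sets. The members' median difference was 0.18 on the log2 scale, against 0 over all probe sets, many of which lie at the lowest value. Over the 8 high members the median was 0.23, close to the 0.22 of all 519 probe sets that read at least 2-fold higher on the 2 arrays than on each of the other 6. On the knockout array 5 of the 8 and 327 of these 519 were higher, so no lean of the members is read from the count. Of the 519, 16.6% differed at least 2-fold between the 2 arrays, while no high member did. Whether the members differ from the 519 in this was not tested. Mst84Dd was 1.69-fold, Mst84Db 1.60-fold, Mst84Dc 1.30-fold and Mst98Cb 1.22-fold higher on the knockout array. Mst84Da was 1.86-fold, Mst87F 1.73-fold and Mst98Ca 1.28-fold higher on the tim-gal4 control array. The 4 adjacent Mst84D genes therefore did not share a sign, nor did the adjacent Mst98Ca and Mst98Cb. Without replicates it cannot be said which of these differences exceed the error of an array.

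**Figure D2:**
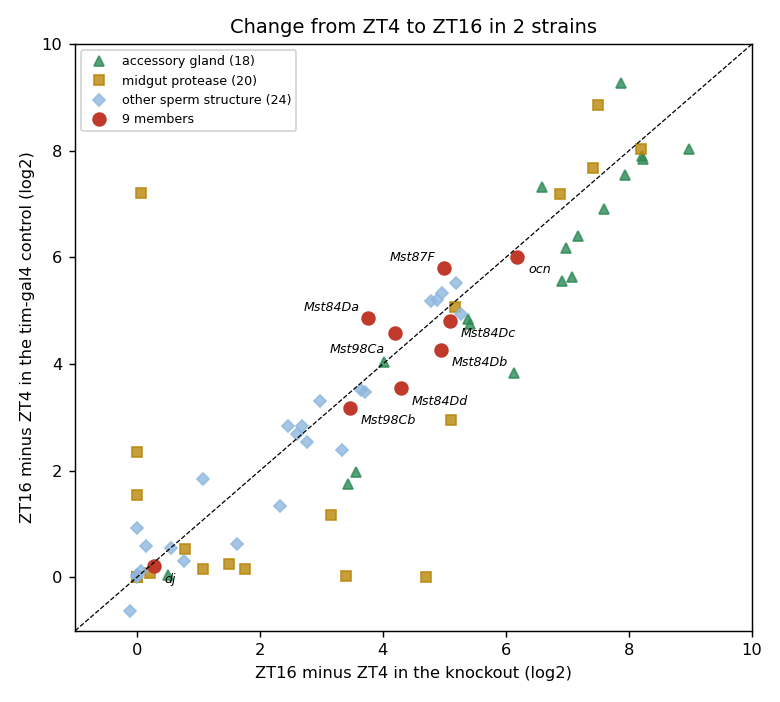
Log2 intensity at ZT16 minus that at ZT4 for the knockout (horizontal) and the tim-gal4 control (vertical) for the 9 members and for 3 lists of genes, with the dashed line at equal differences. The members lie near the line, from 0.28 and 0.21 for dj to 6.19 and 6.01 for ocn, and several midgut proteases lie far from it.

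Other genes of sperm formation were read from lists chosen with earlier results of these data known. Of all probe sets, 2.77% read at least 2-fold higher on the 2 arrays than on each of the other 6. Since the 2 arrays were named from those results, nothing is read from the list counts here and below. Of 24 other sperm structure genes analysed here, djl and janB among them, 15 (62.5%) read at least 2-fold higher on the 2 arrays than on each of the other 6. Their median difference between ZT16 and ZT4 was 2.54 for the knockout and 2.46 for the tim-gal4 control on the log2 scale, against 0 over all probe sets in either strain. The 3 with the highest mean were Mst85C, betaTub85D and Mst77F. The testis-specific beta-tubulin gene betaTub85D read 7.29 for the knockout and 7.64 for the tim-gal4 control at ZT16, against at most 2.54 elsewhere. Mst77F, a linker-histone-like protein of sperm chromatin, read 7.70 and 7.36 against at most 2.48. Mst85C read between 5.72 and 6.60 on all 8 arrays and so did not share the members' pattern. The protamine genes ProtA and ProtB, which package sperm DNA, were picked after their values were seen. ProtA read 5.66 for the knockout and 4.71 for the tim-gal4 control at ZT16, ProtB 4.80 and 5.17, and both at most 2.34 elsewhere. The other 9 genes of the list were not 2-fold higher in this way, and 4 of them read at most 3 on every array. Tektin-C read 6.89 (ZT4) and 6.58 (ZT16) in the w1118 control, 2.89 and 2.95 on the 2 arrays, and at most 2.40 elsewhere. Tpl94D read 2.46 for the knockout and 3.38 for the tim-gal4 control at ZT16, and 2.46 elsewhere.

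The cup and comet genes, which are transcribed after meiosis in elongating spermatids, gave 5 of 16 (31.2%) at least 2-fold higher on the 2 arrays than on each of the other 6, and 7 read at most 3 on every array. Among the 3 with the highest mean, f-cup read between 7.38 and 7.81 and m-cup between 4.13 and 5.48 over the 8 arrays. The gene w-cup read 6.96 for the knockout and 4.99 for the tim-gal4 control at ZT16, against 2.32 elsewhere.

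Of 14 genes of the spermatocyte programme, among them the meiotic arrest genes, none met that criterion, and 12 read at most 3 on every array. The highest by mean was bol, a regulator of meiotic translation, at 5.59 and 6.29 on the 2 arrays and 4.41 to 6.43 on the others. It was followed by achi and mia, which read between 2.62 and 3.17. Of 11 early germline genes none met the criterion either, and 10 read at most 3 on every array. The exception was ovo, a germline regulator that the epidermis also uses, at 4.48 to 5.55, while bgcn and AGO3 read at most 2.45. All 6 Y-linked fertility genes, the dynein heavy chain genes kl-2, kl-3 and kl-5 and the genes Pp1-Y2, ORY and ARY, read at most 2.34 on every array.

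**Figure D3:**
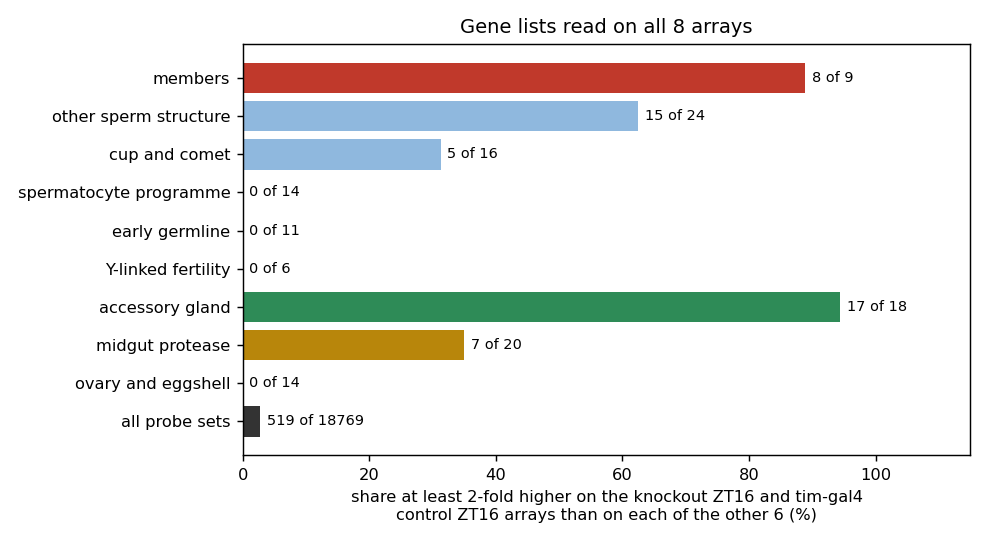
Share of each gene list that read at least 2-fold higher on the ZT16 arrays of the knockout and the tim-gal4 control than on each of the other 6 arrays, with the counts beside the bars and all probe sets in the last row. The members stand at 8 of 9 and other sperm structure genes at 15 of 24, the spermatocyte, early germline, Y-linked and ovary lists at 0, and all probe sets at 2.77%.

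Markers of other tissues were read from lists that were also chosen with earlier results of these data known. Of 18 accessory gland genes, which encode seminal fluid proteins, 17 met the criterion, against 2.77% of all probe sets. Summed over the list, as log2 of the sum of intensities, they stood at 14.1 for the knockout and 13.4 for the tim-gal4 control at ZT16 and at 6.55 to 6.82 on the other 6 arrays. Acp98AB read 12.15 and 11.64 on the 2 arrays, 4.28 in the knockout at ZT4 and at most 2.37 elsewhere. Mst57Da read 11.20 and 10.22 on the 2 arrays, 2.98 in the knockout at ZT4 and at most 2.33 elsewhere, and Acp53C14b 11.30 and 10.36 against 2.32. On the knockout ZT4 array Mst84Da, at 2.60, was the one member that read higher than in the w1118 control at ZT16.

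Of 20 midgut proteases 7 met the criterion and 13 did not. The summed level of the 20 was 12.2 for the knockout and 12.7 for the tim-gal4 control at ZT16, against 6.66 on the other 6. The trypsin gene alphaTry read 9.83 and 11.18 on the 2 arrays, Jon65Aiv 10.53 and 10.35, and Jon65Aiii 9.76 and 10.02, against at most 2.34 elsewhere. These have the highest means of the list. Others were high on only 1 of the 2 arrays, such as betaTry at 2.39 and 9.54 and Jon99Fi at 7.03 and 2.32. A further 4 read at most 3 on every array. Of 14 ovary and eggshell genes none met it and all read at most 3 on every array, with yellow-g at most 2.95, Cp36 at most 2.48 and Cp19 at most 2.79. Yp1, Yp2 and Yp3, yolk protein genes of the female fat body, and fit, a female-enriched gene, read between 11.2 and 14.9 on every array. From ZT4 to ZT16 all 5 head markers fell in the tim-gal4 control, with log2 differences of -1.14 to -0.24. In the knockout the differences ran from -1.19 to 0.22, in the w1118 control from -0.52 to 0.46 and under overexpression from -0.97 to 0.02. Against the range of the other 6 arrays the markers had no common direction on the 2 arrays, given here with the knockout first. Both values of trp, 11.65 and 11.83, lay within the range of the others, and both of inaC, 8.77 and 9.25, below the 9.39 to 10.52 of the others. The glial gene repo read 5.51 and 7.79 against 6.70 to 8.75, nSyb 6.93 and 8.30 against 7.16 to 9.003, and elav 8.33 and 6.35 against 6.83 to 8.24. The part of tissue from outside the head in the members' values was not tested.

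Between the 2 arrays the lists did not stand in the same order. The summed level of the 9 members was 10.33 on both, and 5.58 to 5.64 on the other arrays. The accessory gland genes were higher on the knockout array in 16 of 18, with a median difference of 0.73 on the log2 scale. Among the 17 that met the criterion 15 were higher there, with a median of 0.77. Of all 519 probe sets that met it, 327 were higher on the knockout array, with a median of 0.22. The midgut proteases differed at least 2-fold in 10 of 20, against 5.37% of all probe sets. Among the 7 that met the criterion 3 did, against 16.6% of the 519. Of the 10, 6 were higher on the knockout array and 4 on the tim-gal4 control array. Over the list the differences ran from -7.15 to 4.71. Those of the members stayed between -0.90 and 0.75, and those of the 24 other sperm structure genes between -0.93 and 0.99. Whether the lists differ in this was not tested, since each array was made once.

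Chromosomal neighbours of the members were read next. The gene janB, beside ocn and related to it, read 6.04 and 5.81 on the 2 arrays and 2.33 on the other 6, while ZIPIC, on the other side, read between 3.78 and 4.23 on all 8. CG1979, beside dj, read 3.75 and 3.81 on the 2 arrays and at most 2.64 elsewhere. Beyond the Mst84D genes, MstProx read at most 2.33 on every array and CG17944 read 3.14 and 2.71 on the 2 arrays, against at most 2.34 elsewhere. Beside the Mst98C genes, CG34437 read 2.46 and 2.38 on the 2 arrays and up to 3.48 in the w1118 control, and UQCR-14L read 2.86 and 2.64, against at most 2.33 elsewhere. Neighbours thus ranged from the members' pattern (janB, djl) to none of it (ZIPIC, MstProx, CG34437).

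Genes with the most similar pattern were ranked by the mean absolute difference over the 8 arrays from the median of the members, after each probe set's own lowest value was subtracted. The first 8 that are no members were CG1394, Muc11A, CG5089, CG7910, CG18662, CG3124, CG4691 and Hsp60C, with mean absolute differences between 0.02 and 0.06 on the log2 scale. CG1394 read 6.73 and 6.997 on the 2 arrays and at most 2.38 elsewhere. Among the members the same measure was 0.02 for Mst98Ca, 0.12 to 0.16 for the 4 Mst84D genes, 0.41 for ocn and 1.06 for dj. The likeness rests on the 2 arrays that all these genes share.

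The design implies 4 comparisons, fitted with limma over all 18769 probe sets with strain and time as terms. With 1 array per condition, the fit takes its error from how unequal the time difference is among the strains. A rise in only 2 of the 4 strains raises this error along with the difference, so it could hardly be called at any size. For ZT16 against ZT4 the members' differences lay between 0.12 (dj, SE 0.069) and 3.05 (ocn, SE 1.66) on the log2 scale, with ZT16 higher in all 9. In limma 0% of all probe sets were called at an adjusted p under 0.05, and no member was (lowest adjusted p = 0.675). Without adjustment 1542 of all probe sets and no member had a p under 0.05. The difference of ocn was 2.00 when either knockout array was left out, 2.06 without either tim-gal4 control array, 4.07 without any 1 of the other 4, and 0.0016 without the 2 arrays. Nothing is read from the last value, since the 2 arrays were named from earlier results.

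For the knockout against the w1118 control the members' differences lay between 0.11 (dj, SE 0.098) and 3.09 (ocn, SE 2.34) on the log2 scale. For overexpression against the tim-gal4 control they lay between -3.005 (ocn) and -0.10 (dj), and for the w1118 strain against the other control strain between -3.003 (ocn) and -0.07 (dj). No member was called by limma in these comparisons (lowest adjusted p = 0.763, 0.642 and 0.573), against 0.16%, 3.45% and 5.86% of all probe sets, and none had an unadjusted p under 0.05. The comparisons share control arrays, and each includes 1 or both of the strains whose ZT16 array stood apart. A p that misses the threshold here does not show that the members were alike between strains.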

How the data were processed

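The deposited table holds log2 intensities of 18952 probe sets on 8 one-colour Affymetrix Drosophila Genome 2.0 arrays. Per the submitters' processing notes the authors used GCRMA, a method that corrects background by probe sequence and normalizes across arrays. Its version is not given in the sources used here. Precision is limited by having 8 arrays. Of the probe sets, 183 controls were left out, and of the other 18769, 13647 had 1 gene symbol, 402 several and 4720 none in the platform annotation. Listed symbols were matched directly or through RefSeq symbols and synonyms (Release 6).

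Levels were used as deposited. limma 3.58.1 (R 4.3.3) was fitted without a filter, with two-sided moderated tests and Benjamini-Hochberg adjustment over all 18769 probe sets, and was tested on simulated data. A filter (log2 of at least 4 on 2 arrays) would keep 8 of 9 members, each only through the arrays where it is high. Tables were made in Python 3.11.15 with pandas 2.3.3 and numpy 2.4.6, and figures with matplotlib 3.10.9. Alternatives were the filter, quantile normalization, median centring, trended robust moderation, no strain block, 1 value per gene, a 4-fold threshold and leaving out arrays.

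Members and lists were chosen with earlier results of these data known. Named besides the members are the 3 genes of each list with the highest mean (all where 6 or fewer were analysed), the 8 most like the members and chromosomal neighbours. ProtA, ProtB, Tektin-C, Tpl94D, betaTry and Jon99Fi fall outside this rule. A gene with several probe sets is read from the one with the highest mean.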

Additional observations from a re-analysis of the deposited data

How the results depend on the processing

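The count of members called was 0 in all 4 comparisons under each of 15 alternatives for time and 14 for each strain comparison. With a rise in 2 strains only, the fit could hardly call the members, so these counts are no support. Leaving out either array of a strain also gives the same time difference. The lowest adjusted p-values in limma came after median centring, 0.0639 for time, 0.282 for the knockout, 0.0872 for overexpression and 0.077 for the control strains. The number of all probe sets called went from 0 to between 0 and 259 for time, from 30 to between 0 and 285 for the knockout, from 648 to between 0 and 1698 for overexpression and from 1100 to between 0 and 2567 for the control strains. The time difference of dj was -0.048 after median centring. When both ZT16 arrays that stood apart were left out, the members' time differences were -0.0095 for dj, 0 for Mst84Db and 0.0015 to 0.0861 for the other 7. That follows from how those arrays were named, so it is no test of the time difference. The counts of 8 members in the knockout and the tim-gal4 control and 0 in the other strains held at a 4-fold threshold, after quantile normalization and after median centring. They too follow from how the 2 arrays were named, so nothing is read from their holding. The median difference between the 2 arrays was 0.17 after quantile normalization and 0.15 after median centring. The time fit pairs the 2 arrays of each strain, and without the strain block limma called 0 members and 2 of all probe sets.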
